A study of Mus musculus with 6 samples.

Results

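The kainate receptor subunit genes Grik1, Grik2, Grik3, Grik4 and Grik5 and the delta receptor gene Grid1 are described here in ribosome-bound and total RNA of the mouse preoptic area. They were taken by gene name and are 6 of the 27884 genes in the deposited table. The study concerns preoptic neurons that express Pnoc, the gene of the neuropeptide precursor prepronociceptin, in energy expenditure and brown fat heat production. All samples came from female NuTRAP::Pnoc-Cre mice aged 17 to 18 weeks, with punches of 3 animals pooled in each replicate. The 3 IP libraries hold RNA from ribosomes pulled down with an antibody to GFP, and the 3 input libraries hold total RNA of the same 3 pools. In NuTRAP mice a ribosomal protein carries EGFP in cells in which Cre has acted, here Cre driven by Pnoc, and a recombined cell keeps the tag after Pnoc itself has been turned down. Both groups carry both alleles, no treatment separates them, and an IP from animals without Cre was not analysed here.

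Kainate receptors are glutamate-gated cation channels of 4 subunits that act on both sides of the synapse, setting transmitter release as well as carrying slow postsynaptic current. GluK1, GluK2 and GluK3, encoded by Grik1 to Grik3, can form channels alone, whereas GluK4 and GluK5, encoded by Grik4 and Grik5, bind glutamate with high affinity and need one of the former as a partner. GluD1, encoded by Grid1, belongs to the same superfamily but works mainly as a synaptic organizer, bridging through secreted cerebellins to presynaptic neurexins.

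The subunits share the part of the gene that builds the ion pore, shown here as a short stretch in which the 6 members can be compared. Each sequence is 51 bases of the spliced canonical transcript in GENCODE M39, on the mm39 build that the counts also used, and capitals mark the CAG glutamine codon at the tip of the pore loop.
Grik1: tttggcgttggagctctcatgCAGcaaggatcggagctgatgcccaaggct
Grik2: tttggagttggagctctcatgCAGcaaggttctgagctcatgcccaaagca
Grik3: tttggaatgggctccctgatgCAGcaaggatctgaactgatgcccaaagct
Grik4: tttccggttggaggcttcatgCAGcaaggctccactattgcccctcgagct
Grik5: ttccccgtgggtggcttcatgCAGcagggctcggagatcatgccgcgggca
Grid1: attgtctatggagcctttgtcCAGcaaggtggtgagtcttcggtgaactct
The windows of Grik1 and Grik2 were identical at 45 of 51 bases, and each matched Grik3 at 41. Grik4 and Grik5 matched each other at 35, but so did Grik1 and Grik5, and Grik2 and Grik5 matched at 34. Grik3 and Grik4 matched at 28, and Grid1 matched the kainate genes at 22 to 28. These windows thus do not place Grik5 closer to Grik4 than to Grik1. The codon is that of the glutamine/arginine site, which the enzyme ADARB1 recodes by adenosine-to-inosine editing in Grik1 and Grik2 mRNA. Gene counts hold no record of editing.

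The marked codon lies at chr16:87737430-87737432 in exon 12 of 16 of Grik1 on the minus strand and at chr10:49120425-49120427 in exon 13 of 17 of Grik2 on the minus strand. In Grik3 it lies at chr4:125585000-125585002, exon 12 of 16, plus strand. In Grik4 it lies at chr9:42458919-42458921, exon 16 of 21, minus strand. In Grik5 it lies at chr7:24721922-24721924, exon 15 of 20, minus strand. In Grid1 it lies at chr14:35172347-35172349, exon 11 of 16, plus strand. An exon junction falls 7 bases past the start of the codon in Grik1, Grik2, Grik3 and Grid1, whereas the printed windows of Grik4 and Grik5 lie within 1 exon. Gene spans were long, from 62 kb for Grik5 to 763 kb for Grid1. No stretch of 75 bases, the read length, was shared between the annotated transcripts of any of the 15 pairs of members. Grik5 shares 145 exonic bases with Zfp574 on the opposite strand. Zfp574 had 10748 counts over the 6 libraries against 42714 for Grik5, and whether counting used strand is not given in the sources used here.

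Total counts per library lay between 48204567 and 53056642, and levels are given as CPM, counts scaled to library size with edgeR's TMM factors, on which a count of 3 equals 0.0551 to 0.0651. Pnoc had 47.7, 43.1 and 41.2 CPM in IP and 7.52, 10.98 and 13.2 CPM in input, a log2 fold change of 2.06 (SE 0.22, adjusted p = 0.000472 in edgeR's quasi-likelihood test). Markers of other cells were lower in IP: 13 of 13 astrocyte genes (median log2 fold change -2.56), 12 of 12 oligodendrocyte genes (-3.23), 9 of 9 oligodendrocyte precursor genes (-2.92), 13 of 13 microglial genes (-3.04) and 7 of 11 endothelial genes (-2.21). Their summed levels in IP were nonetheless above 0, at 1180 to 1519 CPM against 4885 to 5781 for astrocyte genes and 26.5 to 40.1 CPM against 233 to 292 for microglial genes. Of 15 genes common to all neurons 7 were higher and 1 lower in IP (7 and 2 with the pool as a block), with a median log2 fold change of 0.48. Of 13 GABAergic genes 6 were higher and 0 lower (8 and 2 with the block).

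None of the 6 members differed between IP and input at an adjusted p under 0.05 in the quasi-likelihood test of edgeR, which called 30% of the 18640 genes tested. At an unadjusted p under 0.05 there were 2 of 6, Grik5 on the higher and Grik2 on the lower side, against 41.8% of all genes. DESeq2 called 1, Grik5, against 29.6% of the genes it tested. With the pool as a block 1 of 6 was called, again Grik5, against 34.6% of all genes. Grik5 was also the only member called with RLE factors (30.4% of all genes), with a filter of at least 1 CPM (38.6%), with an offset for gene length (31.2%), without pool 1 (25.5%) and without input 1 (26.6%). Log2 fold changes ran from -0.41 for Grik2 to 0.58 for Grik1 with a median of 0.31, beside -0.07 over all genes tested and 0.48 over the genes common to all neurons. IP and input ranges did not overlap for 3 of 6 members, Grik5 and Grid1 with IP above and Grik2 with IP below, against 47.7% of all genes tested. A difference between IP and input joins which cells gave the RNA with how much of it was on ribosomes. In such bulk libraries fewer cells of a type and less RNA per cell cannot be told apart either.

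**Figure D1:**
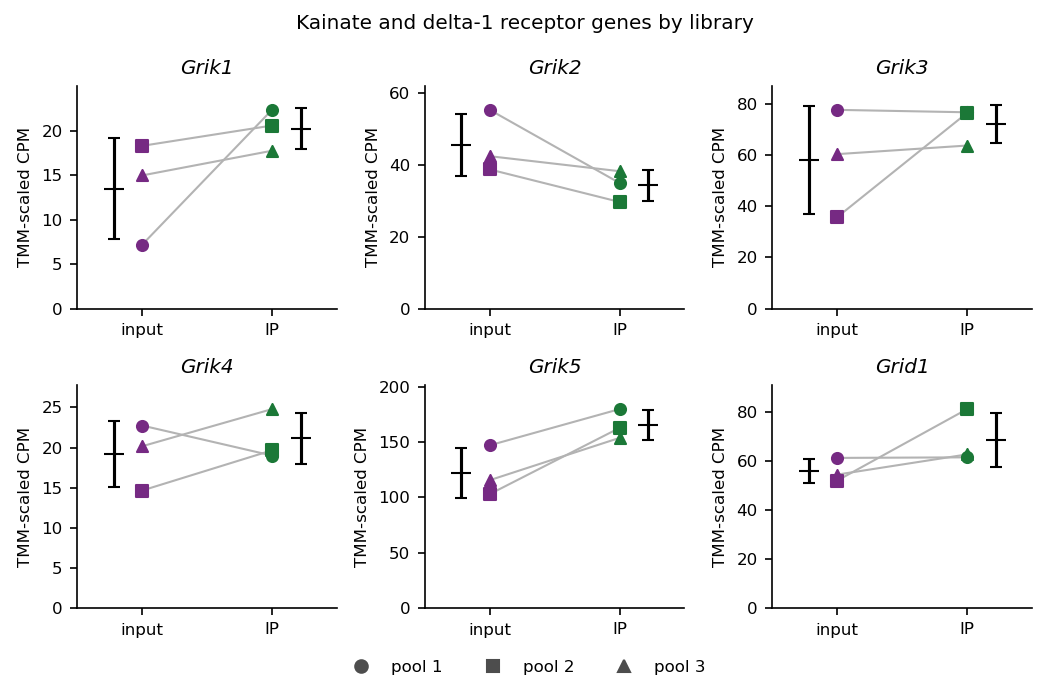
TMM-scaled CPM of each member in the 3 input (purple) and 3 IP (green) libraries, with grey lines joining libraries of the same pool and bars giving mean ± SD (n = 3). Grik1, Grik5 and Grid1 are higher in IP in all 3 pools, Grid1 in pool 1 by a log2 difference of only 0.01. Grik2 is lower in all 3, and the Grik1, Grik3 and Grik4 ranges overlap.

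Among the subunits that form channels alone, Grik1 (ENSMUSG00000022935, chr16:87692788-88087153) had 22.3, 20.6 and 17.7 CPM in IP replicates 1 to 3 and 7.19, 18.3 and 14.96 CPM in input. IP exceeded input within each pool, but the ranges overlapped because input 2 lay above IP 3, and input 1 stood well below every other library. The means were 20.2 ± 2.32 and 13.5 ± 5.69 CPM (SD, n = 3), and the log2 fold change was 0.58 (SE 0.31, adjusted p = 0.194, edgeR). Within pools the log2 difference was 1.64 in pool 1, 0.17 in pool 2 and 0.25 in pool 3. Without input 1 the log2 fold change was 0.29, and without input 2 it was 0.90.

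Grik2 (ENSMUSG00000056073, chr10:48970929-49664862), the most widely studied kainate subunit gene, had 35.0, 29.7 and 38.3 CPM in IP against 55.4, 38.8 and 42.5 CPM in input. Every IP library lay below every input library, although IP 3 and input 2 were separated by less than 1 CPM. Means were 34.3 ± 4.32 and 45.5 ± 8.71 CPM (SD, n = 3), and the log2 fold change was -0.41 (SE 0.18, adjusted p = 0.115, edgeR). It was the only member lower in IP in all 3 pools, with log2 differences of -0.66, -0.38 and -0.15. An offset that removes each library's trend with gene length brought the log2 fold change to -0.13 (adjusted p = 0.526, edgeR); Grik2 has the longest gene model of the 6, 13246 bp in the deposited table.

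For Grik3 (ENSMUSG00000001985, chr4:125384493-125607966), whose receptors respond only to high glutamate, IP libraries had 76.6, 76.4 and 63.6 CPM and input libraries 77.6, 35.7 and 60.3 CPM. Input 1 lay above every IP library, so that the groups overlapped, and input 2 was the low library. The log2 fold change was 0.32 (SE 0.26, adjusted p = 0.387, edgeR), from means of 72.2 ± 7.42 and 57.9 ± 21.01 CPM (SD, n = 3). Nearly all of it came from pool 2, where the log2 difference was 1.10 against -0.02 in pool 1 and 0.08 in pool 3. It was 0.11 without input 2 and 0.60 without input 1. With the length offset and the pool as a block together the log2 fold change was 0.58 (SE 0.17, adjusted p = 0.0223, edgeR), where 36.1% of all genes were called.

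Of the subunits that need a partner, Grik4 (ENSMUSG00000032017, chr9:42429431-42855789) showed the smallest difference. It had 19.0, 19.7 and 24.8 CPM in IP and 22.7, 14.6 and 20.2 CPM in input. The ranges overlapped, with IP below input in pool 1 and above it in pools 2 and 3. The log2 fold change was 0.14 (SE 0.20, adjusted p = 0.642, edgeR), from 21.1 ± 3.17 and 19.2 ± 4.14 CPM (SD, n = 3), and leaving out single libraries gave 0.02 to 0.29.

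Grik5 (ENSMUSG00000003378, chr7:24709274-24771771) had the highest counts of the 6, with 179.6, 162.6 and 153.6 CPM in IP and 146.9, 102.8 and 115.4 CPM in input. The lowest IP library lay above the highest input library, and IP was above input in each pool by 0.29, 0.66 and 0.41 on the log2 scale. The group means of 165.3 ± 13.2 and 121.7 ± 22.7 CPM (SD, n = 3) differed 1.36-fold, or by 0.44 on the log2 scale (SE 0.16, adjusted p = 0.0655, edgeR). With the pool as a block the log2 fold change was 0.45 (SE 0.14, adjusted p = 0.0282, edgeR), and DESeq2 gave 0.47 (adjusted p = 0.0329). The authors' deposited table lists the same 0.47 and adjusted p of 0.0329 for Grik5, the only member it puts below 0.05, among 23.8% of its genes. Leaving out input 1 brought edgeR's adjusted p to 0.0104, while leaving out another single library gave up to 0.181.

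Grid1 (ENSMUSG00000041078, chr14:34542065-35305336) had 61.4, 81.0 and 62.6 CPM in IP and 61.1, 51.9 and 54.3 CPM in input. The groups were separated only by the narrow gap between IP 1 and input 1, and IP 2 was the highest library. The log2 fold change was 0.29 (SE 0.15, adjusted p = 0.185, edgeR), from 68.3 ± 11.02 and 55.8 ± 4.78 CPM (SD, n = 3). Pool 1 showed a log2 difference of 0.01, pool 2 one of 0.64 and pool 3 one of 0.20, and without IP 2 the log2 fold change was 0.16. The length offset together with the block gave 0.40 (SE 0.14, adjusted p = 0.0421, edgeR).

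**Figure D2:**
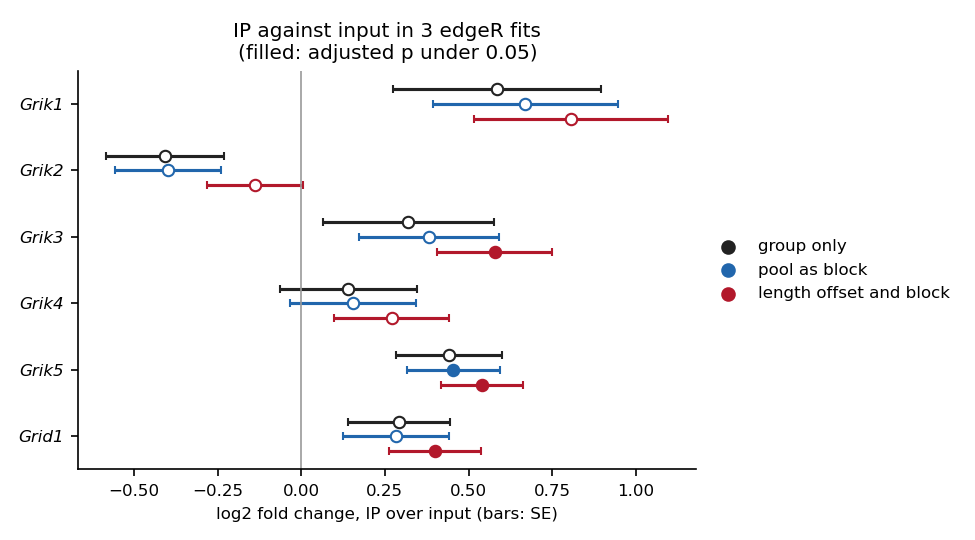
Log2 fold change of IP over input with its SE for each member in edgeR with group only (black), with the pool as a block (blue) and with a length offset and the block (red), filled where the adjusted p is under 0.05. Grik5 is filled in both blocked fits, Grik3 and Grid1 only with the length offset as well, and Grik2 lies left of 0 in all 3.

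Levels can be compared between genes only per length, for which the authors' FPKM (normalised counts per kilobase of gene model, scaled to a common library size) were used. In IP the order was Grik5 at 31.9 ± 2.34, Grid1 at 11.5 ± 1.88, Grik3 at 8.04 ± 0.79, Grik4 at 3.55 ± 0.55, Grik1 at 3.003 ± 0.33 and Grik2 at 2.59 ± 0.33 FPKM (SD, n = 3). The ranges of the IP libraries separated Grik5, Grid1, Grik3 and Grik4 from each other, while Grik4 and Grik1, and Grik1 and Grik2, overlapped. In input Grik5 (23.1 ± 4.07), Grid1 (9.17 ± 0.69) and Grik3 (6.31 ± 2.24) led again, followed by Grik2 (3.36 ± 0.61), Grik4 (3.15 ± 0.66) and Grik1 (1.97 ± 0.84 FPKM), and from Grik3 down each neighbouring pair overlapped. The order of the lower 3 genes depended on the length used. With canonical transcript lengths the IP values were 5.65 for Grik1, 3.64 for Grik2 and 3.38 for Grik4, since the canonical Grik1 transcript has 3570 bp against 6721 bp in the deposited table.

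The summed FPKM of the 5 kainate genes was 52.0, 48.7 and 46.7 in IP and 44.7, 31.5 and 37.4 in input. In this unit every IP library lay above every input library. In CPM the sums were 332.5, 308.9 and 298.1 in IP and 309.7, 210.2 and 253.3 in input. There the groups overlapped, with input 1 above IP 2 and IP 3. Shares of the FPKM sum do not depend on the scaling between libraries, but no offset for gene length was applied to them. Grik5 made up 66.3%, 64.8% and 63.9% of it in IP and 61.6%, 62.2% and 59.0% in input. The groups did not overlap, with means of 65.0 ± 1.19% and 60.9 ± 1.72% (SD, n = 3) and a difference of 4.06 percentage points (exact two-sided permutation p = 0.1, the smallest that 3 against 3 allows; 0.25 after Benjamini-Hochberg adjustment over 5 shares). Grik2 made up 5.04%, 4.62% and 6.21% in IP and 9.06%, 9.15% and 8.46% in input. This too was without overlap, a difference of -3.60 points between means of 5.29 ± 0.83% and 8.89 ± 0.37% (SD, n = 3; exact permutation p = 0.1, adjusted 0.25).

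The other kainate shares overlapped between the groups. Grik3 took 16.3%, 17.5% and 15.2% in IP and 18.7%, 12.5% and 17.8% in input (exact permutation p = 1.0). Grik4 took 6.08%, 6.79% and 8.94% against 8.27%, 7.68% and 8.93% (exact permutation p = 0.4). Grik1 took 6.34%, 6.30% and 5.67% against 2.32%, 8.51% and 5.88% (exact permutation p = 0.8), and its difference of 0.53 points became -1.09 without input 1. The Grik3 difference of 0.04 points became -1.89 without input 2 and -0.55 without IP 2.

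Grouped by role, the log2 ratio of the partner-dependent genes Grik4 and Grik5 to Grik1, Grik2 and Grik3 was 1.39, 1.33 and 1.43 in IP and 1.22, 1.21 and 1.08 in input. All IP values lay above all input values, by 0.21 between means of 1.38 ± 0.05 and 1.17 ± 0.08 (SD, n = 3; exact two-sided permutation p = 0.1). No library left out changed the sign of this difference, which then ranged from 0.17 to 0.24. The ratio is built from the shares above and follows mainly those of Grik5 and Grik2. The Grik4 share went the other way, by -1.03 points between means, with IP higher in 1 of 3 pools. For Grik1 and Grik3 the share differences were 0.53 and 0.04 points.

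**Figure D3:**
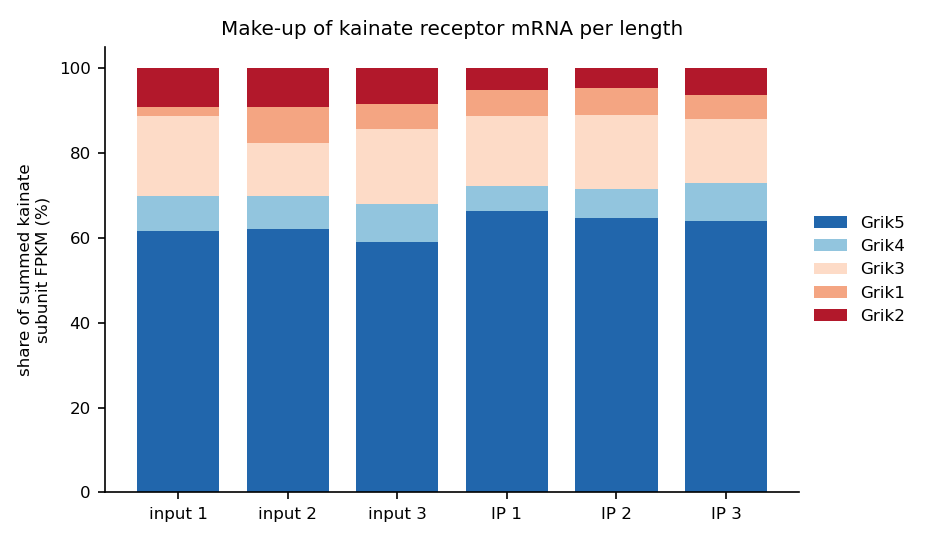
Share of each kainate subunit gene in the summed FPKM of Grik1 to Grik5 (%), 1 stacked bar per library. Grik5 fills 59.0% to 66.3% of every bar, and the Grik2 segment is 4.62% to 6.21% in IP against 8.46% to 9.15% in input.

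Set against the mean log2 level of 15 genes common to all neurons in the same library, Grik2 was the only member whose groups stayed apart. Its log2 difference was -0.70 on that scale (exact two-sided permutation p = 0.1, adjusted 0.6 over 6 genes). The corresponding differences were 0.38 for Grik1, 0.16 for Grik5, 0.09 for Grik3, -0.01 for Grid1 and -0.14 for Grik4, and all of these overlapped. The gap between IP and input for Grik5 was thus smaller relative to other neuronal genes than in CPM. The share of all genes whose groups stay apart on the neuronal scale was not computed. That scale also has no offset for gene length, with which the Grik2 log2 fold change in the count test was -0.13 (adjusted p = 0.526, edgeR).

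Genes of proteins that bind or modify kainate receptors included 5 that were higher and 2 that were lower in IP among 14 tested (edgeR, adjusted p under 0.05), with a median log2 fold change of 0.05. Over all genes tested 12.9% were called higher and 17.1% lower. Pick1, whose PDZ-domain protein binds the tails of glutamate receptors, had 26.9, 26.9 and 28.9 CPM in IP against 9.10, 9.70 and 11.7 CPM in input and rose by 1.44 on the log2 scale (SE 0.16, adjusted p = 0.000595). This call held without any single library. Outside the rule for named genes, and chosen after their values were seen, 3 more of those called higher were the scaffold genes Dlg3 (0.75), Grip2 (0.60) and Dlg4 (0.46), with adjusted p of 0.0228, 0.0349 and 0.0434.

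With 1 library left out, the adjusted p reached 0.0738 for Dlg3, 0.127 for Grip2 and 0.107 for Dlg4, and the log2 fold changes were 0.63 to 0.98, 0.50 to 0.78 and 0.39 to 0.62. The calls were lost without IP 1, IP 2 or input 3 for all 3, and also without input 1 for Grip2 and without IP 3 or input 2 for Dlg4. On the lower side Dlg1, which encodes the scaffold SAP97, changed by -1.05 (SE 0.23, adjusted p = 0.0116), with 80.7, 59.4 and 61.1 CPM in IP and 189.0, 105.2 and 122.3 CPM in input. Klhl24, which encodes a kelch protein that binds kainate receptor subunits, changed by -0.70 (SE 0.17, adjusted p = 0.0152). Without IP 2 or IP 3 the adjusted p was 0.0505 and 0.0547 for Dlg1, and 0.0629 and 0.0663 for Klhl24, which also missed the threshold without input 3 (0.0621).

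Neto1 and Neto2, named here after their values were seen, encode the auxiliary subunits that slow the gating of kainate receptors. Neto1 had 71.9, 34.6 and 45.1 CPM in IP and 149.1, 58.1 and 66.8 CPM in input. IP was below input in each pool, but IP 1 lay above inputs 2 and 3. The log2 fold change was -0.85 (SE 0.39, adjusted p = 0.135, edgeR) and passed with the pool as a block, at -0.79 (adjusted p = 0.00256). Within pools the log2 difference was -1.05, -0.75 and -0.57. Without input 1 the unblocked log2 fold change was -0.30. With both libraries of pool 1 left out it was -0.65 (adjusted p = 0.0274, edgeR). The adjusted p was 0.187 without pool 2 and 0.315 without pool 3. Neto2 had 69.2, 55.1 and 65.1 CPM against 118.1, 61.9 and 58.5 CPM, with overlap and a log2 fold change of -0.33 (adjusted p = 0.386, edgeR).

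Among 12 partners and ligands of delta receptors 2 were higher and 2 lower in IP, with a median log2 fold change of 0.38. The block called 4 higher and 2 lower, beside 15.2% and 19.4% of all genes. Cbln1, a secreted ligand that ties delta receptors to neurexins, had 173.5, 188.2 and 219.3 CPM in IP and 58.4, 143.4 and 106.5 CPM in input, and rose by 0.91 (SE 0.29, adjusted p = 0.0430, edgeR). Nrxn3, the gene of a presynaptic neurexin, rose by 0.41 (SE 0.12, adjusted p = 0.0315, edgeR). Either call was lost without any 1 of the 3 IP libraries or input 3, with adjusted p of up to 0.135 for Cbln1 and 0.111 for Nrxn3. The 2 further genes under the block, named after their values were seen, were Cbln2 (adjusted p = 0.0168) and C1ql2 (adjusted p = 0.0415).

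C1ql3 and C1ql1 encode secreted C1q-like synaptic proteins. C1ql3 changed by -1.44 on the log2 scale (SE 0.27, adjusted p = 0.00591, edgeR), with 6.27, 5.59 and 6.65 CPM in IP and 24.1, 13.7 and 12.6 CPM in input. C1ql1 changed by -0.99 (SE 0.23, adjusted p = 0.0137, edgeR), and its adjusted p was 0.0528 without IP 2 and 0.0631 without input 3. C1ql1 is also one of the oligodendrocyte precursor markers, all of which were lower in IP, with a summed level of 50.9 to 80.8 CPM against 406 to 514. The part of those cells in the C1ql1 result was not tested.

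**Figure D4:**
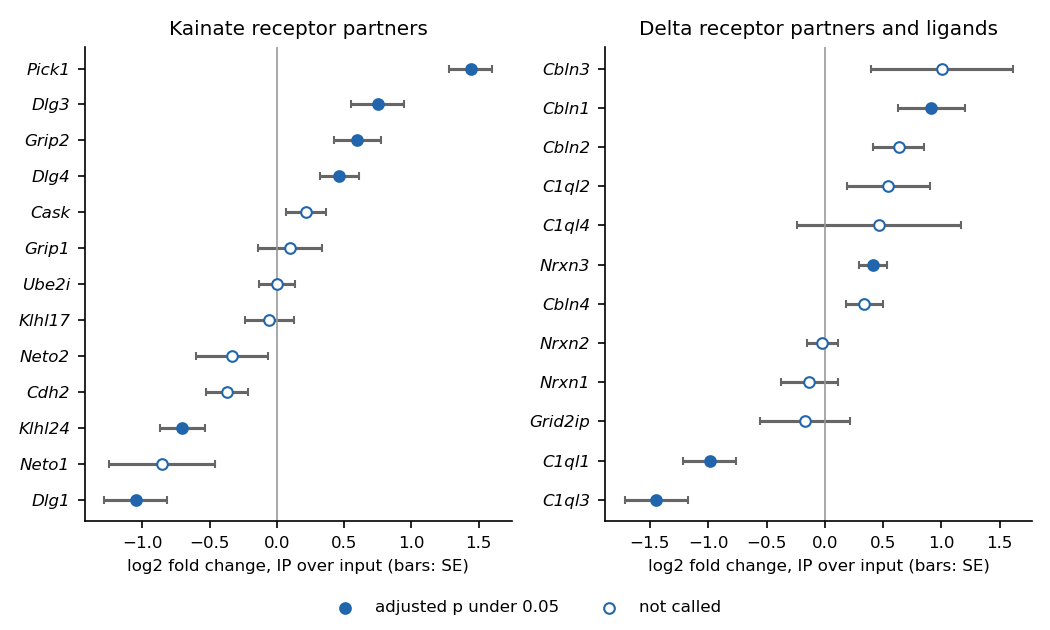
Log2 fold change of IP over input with its SE for kainate receptor partners (left, those reported here) and 12 delta receptor partners and ligands (right), filled where edgeR's adjusted p is under 0.05. Among the filled points Pick1 (1.44) and Dlg1 (-1.05) mark the extremes on the left, Cbln1 (0.91) and C1ql3 (-1.44) those on the right.

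None of the 3 editing enzyme genes was called by edgeR or DESeq2, and 1 had an unadjusted p under 0.05. This was Adarb1, the editor of the codon shown in the sequences of Grik1 and Grik2, with 424.8, 1321 and 875.4 CPM in IP and 248.1, 601.5 and 424.5 CPM in input. It was higher in IP in each pool but overlapped between groups, with a log2 fold change of 1.04 (SE 0.42, adjusted p = 0.0977, edgeR). With the pool as a block it was 0.99 (adjusted p = 0.000386), and without IP 1 the unblocked adjusted p was 0.0260. Adar, the gene of the other active editor, had a log2 fold change of -0.33 (SE 0.21, adjusted p = 0.276, edgeR), and the adjusted p was 0.0357 without input 2.

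The other ionotropic glutamate receptor genes give the scale for the members. None of 4 AMPA subunit genes was called by edgeR, with 1 at an unadjusted p under 0.05 and 1 called by DESeq2, and their median log2 fold change was -0.26, against 0.31 for the 6 members. Gria2 had a log2 fold change of -0.92 (SE 0.34, adjusted p = 0.0738, edgeR), which passed with the block (adjusted p = 0.00151) and without input 2 (0.0333), and Gria1 one of -0.11 (adjusted p = 0.729, edgeR). Among 6 of 7 NMDA subunit genes that could be tested 1 was higher, Grin2d at 0.63 (SE 0.16, adjusted p = 0.0219, edgeR), and their median was 0.25. Grin2d missed the threshold without any 1 of the IP libraries (up to 0.0755), and the block called 2, Grin2a as well. Differences between these families were not tested.

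Markers of neighbouring regions differed between libraries along with several members. Input 1 had the lowest Grik1, the highest Grik2 and the highest Neto1, Neto2 and Gria2 of the 6 libraries. The same library had the highest summed level of 8 cortical excitatory neuron markers, 712.8 CPM against 155.0 to 383.5 CPM elsewhere, the lowest being IP 1 of the same pool. It also had the highest sum of 10 striatal projection neuron markers, 1989 CPM against 411 to 864 CPM, and the lowest sum of 6 thalamic markers, 283.7 CPM against 761 to 2118 CPM. Calb2 alone gave 172.6 CPM of the thalamic sum in input 1 and 572.2 CPM in IP 1. Each other thalamic marker was lower in both libraries of pool 1 than in every library of pools 2 and 3. Plekhg1 was lower in IP 1 (7.14 CPM) than in input 1 (20.6 CPM). Input 2, the library with the lowest Grik3, Grik4, Grik5 and Grid1, had 256.6, 539.1 and 1210 CPM for the cortical, striatal and thalamic sums. Between IP and input none of the 8 cortical markers was called by edgeR or DESeq2 or had an unadjusted p under 0.05, while the block called 3 lower. Of 10 striatal markers edgeR called 1 higher and 3 lower, and with the block 1 higher and 7 lower. Of 6 thalamic markers 1 was higher, and 4 with the block. The part of neighbouring regions in the values of the members and of Neto1 was not tested.

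**Figure D5:**
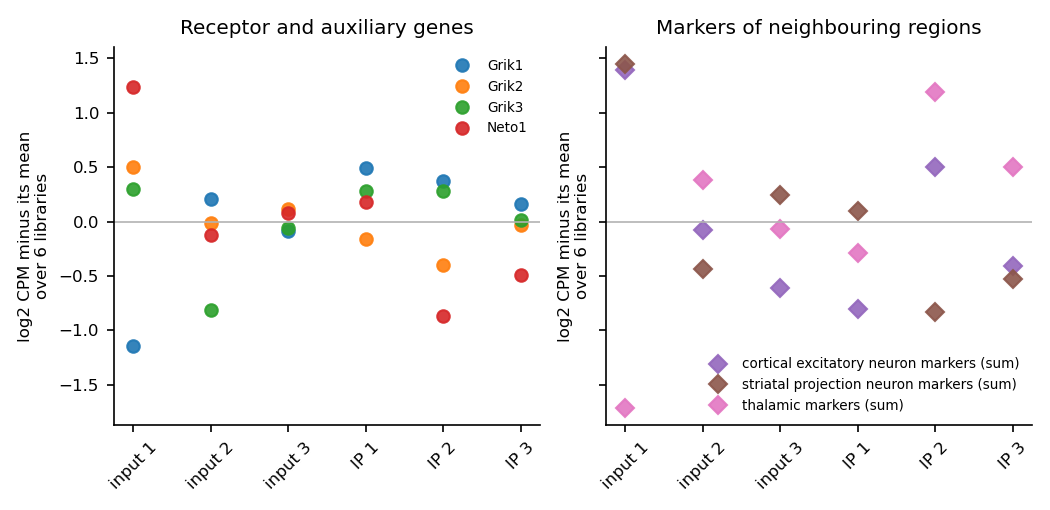
Log2 CPM minus its mean over the 6 libraries for Grik1, Grik2, Grik3 and Neto1 (left) and for summed markers of cortical, striatal and thalamic neurons (right). In input 1 Grik1 and the thalamic sum have their lowest points, and Grik2, Neto1 and the cortical and striatal sums their highest.

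Over the 6 libraries, which share 3 pools and the split into IP and input, the log2 CPM profile of each member was set beside those of 9986 protein-coding genes. The most similar genes were Dnajc4 and Ggact for Grik1 (Pearson r of 0.997 and 0.993), Sirt7 and Zfp263 for Grik2 (0.999 and 0.998), and Hif1an and Ksr2 for Grik3 (0.993 and 0.990). For Grik4 they were Wdtc1 and Usp37 (0.979 and 0.973), for Grik5 Marchf4 and the scaffold gene Dlg3 (0.996 and 0.995), and for Grid1 Dlgap4 and Ppm1h (0.985 and 0.984). Among the members themselves Grik1 and Grik2 had the most opposed profiles (r of -0.92) and Grik3 and Grik5 the most similar (0.86). These values describe 6 libraries and carry no test.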

How the data were processed

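Libraries of poly(A) RNA from 3 IP and 3 input samples were sequenced as paired ends of 75 bp, per the labels. Reads were aligned with HISAT2 to mm39 and counted with featureCounts, and the authors ran DESeq2, per the submitters' processing notes; tool versions are not given in the sources used here. The deposited table holds whole-number read counts per gene, the authors' FPKM values, a size-factor-normalised signal that the authors made from the counts and that was not tested here, and log2 fold changes with p-values that the authors took from DESeq2, per the file headers. The authors' FPKM values divide size-factor-normalised counts by gene length. Sample titles gave the groups and the replicate numbers.

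Counts were tested with edgeR 4.0.16 in R 4.3.3 (quasi-likelihood test, TMM factors, filterByExpr, group only, two-sided, Benjamini-Hochberg over 18640 genes, threshold 0.05), which was checked on simulated counts. Input came from each pool in parallel, per the series' design text, so same-numbered libraries were taken as paired. Deviations from group means correlated at 0.26, 0.14 and 0.10 between them and at -0.22 to 0.09 otherwise. P-values of the group-only fits measure the spread between libraries of a group, each from a pool of 3 animals, and ignore the pairing. Those of the fits with the block measure how far the difference between IP and input varied from pool to pool. Shares used the authors' FPKM. Exact permutation tests shuffled all 6 libraries between the groups and did not use the pairing by pool.

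The genes named were all members, Pnoc, and for every list the 2 called genes of lowest adjusted p on either side or, with none called, the 2 most abundant genes, plus the 2 most similar profiles per member. Members were set by gene name, but they, the lists and the tests were chosen with earlier results of these data known. As alternatives, DESeq2 1.42.0 was run, and edgeR with upper-quartile or RLE factors, library totals, no filter, at least 1 CPM in a group, the block, libraries or pools left out, a length offset (spline of 4 degrees of freedom) with and without the block, a fold threshold of 1.5, and for shares CPM, 0.1 FPKM added and, chosen after seeing the data, canonical transcript lengths and pool 1 left out. Protein sequences were not used here, and a few listed genes are left without values in the text.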

Additional observations from a re-analysis of the deposited data

How the results depend on the processing

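No member's log2 fold change from the count tests changed sign under their alternatives; 104 of these values kept their side of the threshold and 10 newly passed it. Grik5 passed at 0.471 with DESeq2, 0.4703 with RLE factors, 0.4441 with the stricter filter, 0.4546 with the replicate block, 0.5359 without pool 1, 0.5323 with the length offset and 0.54 with offset and block, and ranged from 0.3796 to 0.6056 without single libraries. With offset and block Grik3 (0.5775) and Grid1 (0.3993) passed too, making 3 members called higher. The other 6 settings just named for Grik5 called 1, and leaving out single libraries called 0 to 1. The block moved no other member past the threshold. Library totals alone moved the median of all genes by -0.11.

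Kainate partners called higher numbered 3 with library totals, 2 without pool 2, 1 without pool 3, 1 at a fold threshold of 1.5 and 2 to 4 without single libraries; lower, they numbered 0 without pool 3 and at the fold threshold, and 0 to 2 without single libraries. Delta partners called higher numbered 1 with upper-quartile factors and without pool 2, 0 with library totals, without pool 3 and at the fold threshold, 4 with the block and 0 to 2 without single libraries; lower, 1 without pool 2 and at the fold threshold, 0 without pool 3 and 1 to 2 without single libraries. Editing enzymes called higher numbered 1 without a filter, with the block and without pool 1, 2 with offset and block and 0 to 1 without single libraries (lower, 0 to 1). AMPA genes called lower numbered 1 with DESeq2, no filter, the block, pool 1 left out or offset and block, and 0 to 1 without single libraries. NMDA genes called higher numbered 2 with DESeq2 and the block, 3 with the offset and 4 with offset and block. They numbered 0 without pool 2 or pool 3 and at the fold threshold, and 0 to 1 without single libraries. Over all genes, the shares called higher and lower were 12.8% and 16.7% with DESeq2, and 15.2% and 19.4% with the block. They were 15% and 16.2% with the offset, and 17.9% and 18.3% with offset and block. Library totals gave 9.3% and 19.7%, and the fold threshold 2.4% and 8.88%. They were 10.7% and 14.8% without pool 1, 7.9% and 11% without pool 2, and 0.705% and 3.93% without pool 3. Single libraries left out gave 7.21% to 13.5% and 10.5% to 15.8%.

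The Grik1 share difference was -1.207 points without pool 1 and -1.091 to 2.003 without single libraries, and that of Grik3 was -1.889 to 1.249, reversed without input 2 (-1.889) and IP 2 (-0.5481). The Grik2 share difference was -6.696 in CPM and -4.449 with canonical lengths. The cause of these shifts was not tested. Over all genes and in either direction, edgeR called 30% in all, 29.4% with upper-quartile factors and 19.8% without a filter. It called 4.64% without pool 3 and 11.3% at the fold threshold. With 3 libraries a group and the pairing by pool left out, the exact permutation test used here cannot go below 0.1. Reads carry no molecular identifiers.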
